A study of Mus musculus with 9 samples.

Results

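The transcripts of 48 mouse genes that are known from preimplantation development, pluripotency and the trophoblast were followed in mouse embryonic fibroblasts (MEFs) that carried an ectopic *CRX* gene. The genes were chosen by name and take up 50 of the 22068 rows of the deposited count table. They fall into 6 genes of the 2-cell stage, 6 ETCHbox homeobox genes, 4 *Dppa* genes, 16 pluripotency factors, 12 trophoblast genes and 4 primitive endoderm genes. *Obox2* and *Crxos* are each listed in a second row, with the same 4 exons for *Obox2* and with 8 of the 9 exons of the first row for *Crxos*. The second rows held the same counts as the first, and each gene was counted once.

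The cells were primary C57Bl/6 MEFs at passage 2, connective tissue cells cultured from mouse embryos. They were electroporated with a plasmid that carried V5-tagged opossum *CRX* for the metatherian CRX condition, with V5-tagged human *CRX* for the eutherian CRX condition, or with no homeobox gene for the control, and every plasmid, the control included, also carried a puromycin resistance gene. All cells were held in puromycin for 5 days, and the labels give 48 h of recovery after selection, whereas the study's methods place the recovery of that length before it. Each of the 3 conditions has 3 libraries of poly-A RNA, and because RNA was harvested in triplicate for each condition with nothing to say that the triplicates came from separate electroporations, p-values measure only the spread between these libraries, which may be technical. The experiment asks whether a marsupial and a eutherian CRX protein act on genes of the early embryo when placed in a fibroblast.

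CRX and its relatives OTX1 and OTX2 are homeodomain proteins of the Otx family. In eutherian mammals CRX is known for its work in photoreceptors, while the ETCHbox genes (*Crxos* and the *Obox* genes in mouse), which arose from a duplicate of *Crx*, are expressed in the preimplantation embryo. The genes studied here mark the steps of that period. The *Zscan4*, *Tcstv* and *Zfp352* transcripts belong to the burst of embryonic transcription at the 2-cell stage. Later, *Cdx2*, *Eomes*, *Gata3* and *Elf5* act in the trophectoderm, the outer layer that forms the placenta, *Nanog*, *Pou5f1* and *Sox2* act in the pluripotent epiblast, and *Gata6*, *Gata4*, *Sox17* and *Sox7* act in the primitive endoderm.

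CRX binds DNA with a TAATCC core, and the promoters of 4 genes are printed to show the range of what stands upstream of the genes. Those of *Zfp352* and *Obox3* hold the core. The windows searched for *Krt18* and *Gata3*, genes treated with the levels further on, do not hold it. The *Gata3* window lies within the row of the gene, which begins upstream of it at base 9887950. Each sequence gives the 250 bases before a RefSeq transcription start on GRCm38.p6, 5′ to 3′ on the strand of the gene. Capitals mark TAATCC, or GGATTA where the core lies on the opposite strand.
Zfp352 (chr4:90218570-90218819, plus strand): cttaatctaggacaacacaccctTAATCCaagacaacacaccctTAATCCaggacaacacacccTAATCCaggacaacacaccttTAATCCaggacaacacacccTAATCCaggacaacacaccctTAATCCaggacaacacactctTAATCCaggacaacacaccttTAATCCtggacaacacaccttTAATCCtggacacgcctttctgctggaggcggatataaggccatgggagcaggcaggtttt
Obox3 (chr7:15639778-15640027, minus strand): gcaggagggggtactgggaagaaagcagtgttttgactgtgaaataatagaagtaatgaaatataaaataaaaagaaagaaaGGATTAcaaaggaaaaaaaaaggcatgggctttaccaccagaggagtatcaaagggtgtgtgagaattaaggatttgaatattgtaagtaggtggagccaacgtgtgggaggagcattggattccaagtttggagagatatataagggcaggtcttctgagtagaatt
Krt18 (chr15:102027966-102028215, plus strand): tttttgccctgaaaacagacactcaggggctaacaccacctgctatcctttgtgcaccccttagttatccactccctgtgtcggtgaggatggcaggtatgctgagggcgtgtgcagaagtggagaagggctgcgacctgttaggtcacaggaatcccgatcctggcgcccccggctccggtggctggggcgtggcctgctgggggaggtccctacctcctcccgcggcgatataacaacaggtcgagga
Gata3 (chr2:9878601-9878850, minus strand): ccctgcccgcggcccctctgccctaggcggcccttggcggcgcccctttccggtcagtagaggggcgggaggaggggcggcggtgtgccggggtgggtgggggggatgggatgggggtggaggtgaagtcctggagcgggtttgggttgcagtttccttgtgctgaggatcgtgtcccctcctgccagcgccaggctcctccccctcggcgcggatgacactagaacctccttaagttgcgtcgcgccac

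RefSeq promoters of 300 bases, 250 before and 50 after the start, were at hand for 30 of the 48 genes in 39 windows. TAATCC, searched on both strands, was present in 6 of these 39 windows (15.4%) and in 2320 of the 32851 windows of all genes (7.06%). The 6 windows belong to 5 genes, with the *Nanog* site counted in the windows of 2 starts, and the genes are *Klf17*, *Nanog*, *Obox3*, *Pou5f1* and *Zfp352*. The promoter of *Zfp352*, a zinc finger gene of the 2-cell stage, held 9 copies, all on the strand of the gene and spaced by 20 or 21 bases from 227 to 61 bases before the start. It was the single window among the 32851 with as many as 9. In the other 4 genes the core stood once, on the opposite strand, at 168 bases before the start in *Obox3*, 31 before it in one window of *Pou5f1*, and 30 bases after it in *Klf17*. A match of these letters describes the window and says nothing of binding, which was not measured.

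**Figure D1:**
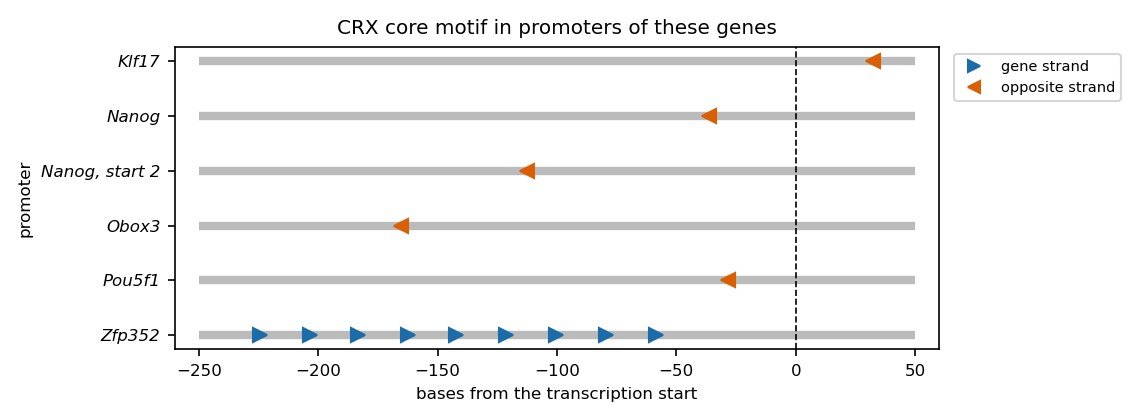
Position of the TAATCC core in the promoters that hold it, in bases from the transcription start (dashed line), with each grey bar covering the 300 bases searched. Arrowheads to the right mark the gene strand and those to the left the opposite strand, and the row of 9 arrowheads in *Zfp352* stands apart from the single sites in *Klf17*, *Nanog* (2 starts), *Obox3* and *Pou5f1*.

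The libraries held between 54145701 and 94699657 counts on genes, and levels are given as CPM, the count scaled to the library total with TMM factors of 0.949 to 1.11, or per length as FPKM, which divides the CPM by the exon length in kilobases. A count of 0 allows up to 3 counts, or 0.0579 CPM in the shallowest library, and such floors cover counting error only. In each condition replicate 3 stood apart from replicates 1 and 2, and the chi-square of the counts per degree of freedom was 271 to 801 with replicate 3 against 22.0 to 70.4 between replicates 1 and 2. All 10 fibroblast markers were detected in every library, and their summed level ran from 33917 CPM down to 7824 CPM in eutherian CRX replicate 3. The ectopic genes have no row of their own, and whether reads from them were counted in the rows of mouse relatives was not tested. The row of mouse *Crx* held 627, 995 and 313 counts with eutherian CRX, 4, 0 and 0 with metatherian CRX and 0 in all control libraries. The row of mouse *Otx2*, a relative of *CRX*, held 11, 15 and 17 counts with metatherian CRX, 0, 0 and 1 with eutherian CRX and 1, 0 and 0 in control, too few to be tested.

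The genes of the first cell divisions stayed at or near 0 under all 3 conditions. The 6 genes of the 2-cell stage (*Zscan4c*, *Zscan4d*, *Zscan4f*, *Tcstv1*, *Tcstv3* and *Zfp352*) had no count in any of the 9 libraries. *Zscan4* proteins act on telomeres and genome stability in early embryonic cells, and these genes were limited by the floor to at most 0.0124 FPKM (*Zscan4d*) to 0.0660 FPKM (*Tcstv1*) in the shallowest library. *Zfp352*, with its 9 copies of the core, had a limit of 0.0256 FPKM. The ETCHbox genes *Obox1*, *Obox2*, *Obox3*, *Obox5* and *Obox6* were at 0 in all libraries as well, with limits of 0.0361 to 0.0475 FPKM, and *Crxos* had a single count, in control replicate 3. Of the *Dppa* genes, which mark germ line and pluripotent cells, *Dppa4* and *Dppa5a* were at 0 in all libraries, *Dppa2* had 1 count in metatherian CRX replicate 2 and *Dppa3* had 1 in control replicate 2. Neither CRX protein was accompanied by a detectable level of these 16 genes at this depth.

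How reads with several alignments were counted is not stated, and this bears on the silent families. Of all stretches of 75 bases, the read length, in the annotated transcripts, 83.4% in *Zscan4f*, 78.6% in *Zscan4c* and 52.6% in *Obox2* also occurred in transcripts of another gene. In these 3 genes of the 48 more of the sequence was shared than not, and the zeros of near-identical copies are therefore less certain than those of *Zfp352* (2.86% shared) or *Obox6* (1.34% shared). In 35 of the 48 genes under 10% was shared.

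**Figure D2:**
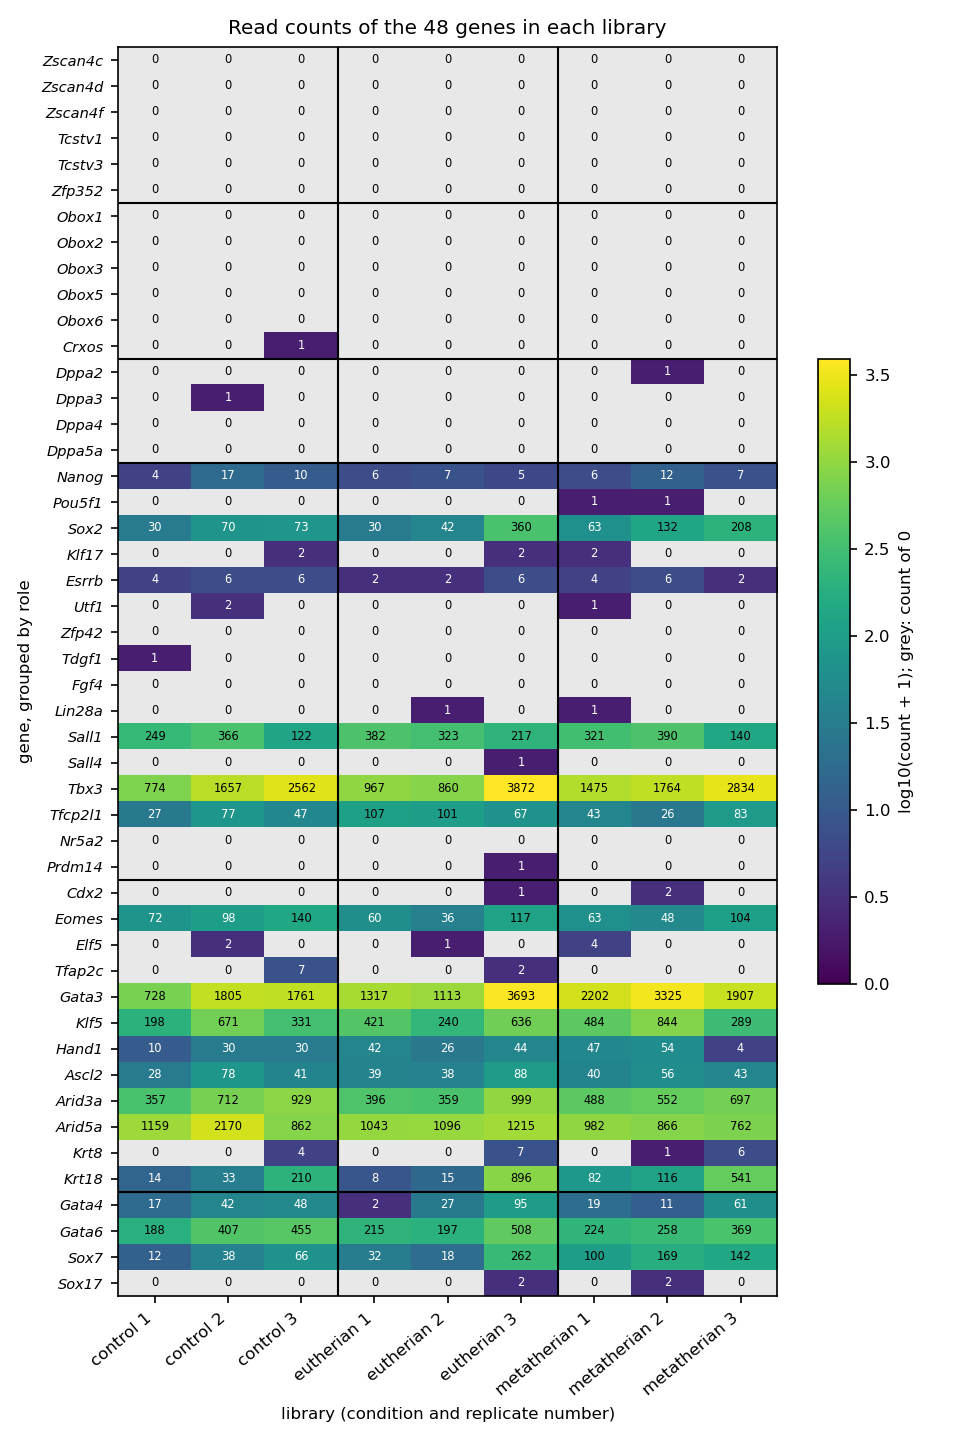
Read count of each of the 48 genes (rows, grouped by role, from 2-cell genes at the top to primitive endoderm genes at the bottom) in each of the 9 libraries (columns), with the count printed in each cell, colour on a log10(count + 1) scale and grey for 0. The upper 16 rows are almost empty, whereas the filled rows lie among the pluripotency, trophoblast and primitive endoderm genes, and *Krt18* ranges from 8 to 896 counts.

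Over all roles, 28 of the 48 genes stayed under 3 counts in every library, 16 of them at 0 throughout, and 15 reached 3 counts in all libraries. The number of genes with at least 3 counts was 17, 17 and 19 in control, 15, 16 and 18 with eutherian CRX and 18, 17 and 17 with metatherian CRX, so that the conditions overlapped. edgeR's filter on low counts kept 16 of the 48 genes for testing, among 14599 genes in all. No 2-cell, ETCHbox or *Dppa* gene was among the 16.

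Of the 3 epiblast factors named above, *Pou5f1* was nearly silent, *Nanog* had at least 3 counts in every library but at most 17, and *Sox2* had 30 to 360. *Pou5f1* (Oct4) had 1 count in each of metatherian CRX replicates 1 and 2 and 0 elsewhere, and its row also covers exons on 2 sequences outside the main chromosomes. *Nanog*, which keeps the epiblast pluripotent, had 4, 17 and 10 counts in control, 6, 7 and 5 with eutherian CRX and 6, 12 and 7 with metatherian CRX. The conditions overlapped at these few counts, with levels of 0.0660 to 0.184 CPM. *Esrrb*, an orphan nuclear receptor, had 2 to 6 counts per library. *Zfp42* (Rex1), *Fgf4* and *Nr5a2* were at 0 in all libraries, and *Klf17*, *Utf1*, *Tdgf1*, *Lin28a*, *Sall4* and *Prdm14* never passed 2 counts.

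Besides *Nanog*, 4 pluripotency factors that also act in later tissues passed the filter. *Tbx3*, a T-box factor of limb and heart, lay at 14.9, 17.9 and 35.9 CPM in control, 12.1, 12.8 and 51.1 with eutherian CRX and 18.7, 23.3 and 43.5 with metatherian CRX. *Sox2*, a factor of the epiblast and of neural progenitors, lay at 0.579, 0.757 and 1.02 CPM in control, 0.377, 0.624 and 4.75 with eutherian CRX and 0.797, 1.74 and 3.19 with metatherian CRX. In both genes replicate 3 was the highest library of each condition, and the conditions overlapped. *Sall1*, a zinc finger factor of kidney and limb, ran the other way, with replicate 3 the lowest of each condition at 1.71, 2.86 and 2.15 CPM against 3.96 to 5.15 CPM in the other libraries. *Tfcp2l1*, a factor of naive pluripotency and of kidney ducts, lay between 0.343 and 1.5 CPM.

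Trophoblast genes were the group with the most measurable members, 8 of 12. *Cdx2*, which sets up the trophectoderm, had 1 count in eutherian CRX replicate 3 and 2 in metatherian CRX replicate 2. *Elf5*, a factor of trophoblast stem cells, had at most 4 counts, and *Tfap2c* had 7 counts in control replicate 3, 2 in eutherian CRX replicate 3 and 0 in the other 7 libraries. *Eomes*, a T-box factor that trophoblast stem cells need, was measurable but low, at 0.535 to 1.96 CPM. *Gata3*, a GATA factor used in the trophectoderm and in many later tissues, was the highest of all 48 genes per length. *Klf5*, a Krüppel-like factor of trophectoderm and epithelia, lay at 3.56 to 11.2 CPM, *Arid3a*, an ARID-domain DNA-binding protein, at 4.97 to 13.2 CPM and *Ascl2*, a helix-loop-helix factor of the placenta, at 0.490 to 1.16 CPM. Exons of *Ascl2* overlap those of *Tspan32* on the opposite strand over up to 1290 bases. They also overlap *Tspan32os* on the same strand over up to 275 bases. The strand setting of the counting is not stated, so the level of *Ascl2* is less certain.

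The 2 keratins of simple epithelia differed from each other in level. *Krt18* had 14, 33 and 210 counts in control, 8, 15 and 896 with eutherian CRX and 82, 116 and 541 with metatherian CRX. *Krt8*, which forms filaments together with *Krt18*, had 0, 0 and 4 counts in control, 0, 0 and 7 with eutherian CRX and 0, 1 and 6 with metatherian CRX. In both keratins replicate 3 was the highest library of each condition. *Krt8* shares 23.5% of its stretches of read length with other genes, mostly with the pseudogene *Krt8-ps*, so that its count is the less certain of the pair, while *Krt18* shares 0%.

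Of the primitive endoderm genes, *Gata6* and *Gata4*, GATA factors that also act in heart and gut, lay at 2.70 to 6.70 CPM and 0.0251 to 1.25 CPM. *Sox7*, a SoxF factor of primitive endoderm and vessels, lay at 0.231 to 3.46 CPM. *Sox17*, which is close to it, had 2 counts in each of eutherian CRX replicate 3 and metatherian CRX replicate 2 and 0 elsewhere.

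Per length, the order of the means over all 9 libraries was *Gata3* at 6.01 FPKM, *Tbx3* at 4.62, *Klf5* at 3.52, *Krt18* at 2.11, *Arid5a* at 1.52, *Arid3a* at 1.27 and *Gata6* at 1.06 FPKM. The other 41 genes had means below 1 FPKM, from *Sall1* at 0.714 down to the 16 genes at 0. Neighbours in this order overlapped across libraries. *Gata3* ran from 3.15 to 10.9 FPKM, *Tbx3* from 2.19 to 9.22 and *Klf5* from 2.06 to 6.45. *Krt18* ran from 0.0718 to 8.44 FPKM, and without its highest library, eutherian CRX replicate 3, its mean over the other 8 was 1.32 FPKM, under that of *Arid5a*. *Gata3* stood at the percentile of 67.8 among the mean FPKM of all 22068 rows.

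Metatherian CRX against control gave no member at an adjusted p under 0.05 in edgeR's quasi-likelihood test, in which 2 of the 14599 genes were called (0.0137%). At an unadjusted p under 0.05 there were 5 members among the 16 tested, against 20.4% of all genes. *Sox7*, *Krt18* and *Gata3* had the higher values with metatherian CRX (3 of 16, against 9.61% of all genes), and *Arid5a* and *Eomes* the lower (2 of 16, against 10.8%). DESeq2 with the same block called 2 members, *Sox7* and *Krt18*, among 9.56% of all genes, and edgeR on only the 6 libraries of this comparison called *Krt18* among 3.82%. Without the replicate number as a block edgeR called 0 of all genes, and fewer members reached an unadjusted p under 0.05. The median log2 fold change of the 16 tested genes was 0.09 (9 above 0, 7 below), beside -0.01 over all genes tested, and these 16 are the detectable genes and not the whole set. In RNA from a whole culture, more cells that express a gene and more RNA per cell cannot be told apart.

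*Sox7* (chr14:63943706-63950732, plus strand, 2 exons, mm10) lay at 0.231, 0.411 and 0.925 CPM in control and at 1.27, 2.23 and 2.18 CPM with metatherian CRX. All 3 metatherian libraries were above all 3 control libraries. The log2 fold change was 2.17 with an SE of 0.64 (unadjusted p = 0.0112, edgeR adjusted p = 0.137), from means of 0.522 ± 0.360 and 1.89 ± 0.543 CPM (SD, n = 3 each). Without eutherian CRX replicate 3 the edgeR adjusted p was 0.0339 (8.84% of genes called), and without metatherian CRX replicate 3 it was 0.0401 (7.09% of genes called). In 7 of the 9 fits with a library left out no gene was called at all. The highest edgeR adjusted p of *Sox7* over the alternatives was 0.442.

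*Gata3* (chr2:9857078-9887950, minus strand, 9 exons) lay at 14.0, 19.5 and 24.7 CPM in control and at 27.9, 43.9 and 29.2 CPM with metatherian CRX. Again no metatherian library fell within the control range. The log2 fold change was 0.87 with an SE of 0.35 (unadjusted p = 0.0402, edgeR adjusted p = 0.222), with means of 19.4 ± 5.32 and 33.7 ± 8.90 CPM (SD, n = 3 each). *Gata3* and *Sox7* were the members whose libraries did not overlap in this comparison, 2 of 16 tested, against 23.8% of all genes in either direction and 11.3% for the higher ones alone. Exons of *Gata3* overlap those of *Gm13256* on the opposite strand over 180 bases and those of *9230102O04Rik* on the same strand over 77 bases, and neither the strand setting of the counting nor the handling of such overlaps is stated.

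*Krt18* (chr15:102028216-102032026, plus strand, 7 exons), whose promoter is printed above, lay at 0.270, 0.357 and 2.94 CPM in control and at 1.04, 1.53 and 8.30 CPM with metatherian CRX. Control replicate 3 exceeded metatherian CRX replicates 1 and 2, so that the conditions overlapped, while each metatherian library exceeded the control library of its own number. This gave a log2 fold change of 1.99 with an SE of 0.73 (unadjusted p = 0.0279, edgeR adjusted p = 0.192), with means of 1.19 ± 1.52 and 3.62 ± 4.06 CPM (SD, n = 3 each). Without the replicate number as a block the log2 fold change was 1.60 with an SE of 1.66 (edgeR adjusted p = 0.688).

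*Arid5a* (chr1:36307706-36324036, plus strand, 7 exons), an ARID-domain protein that binds nucleic acids, lay at 22.4, 23.5 and 12.1 CPM in control and at 12.4, 11.4 and 11.7 CPM with metatherian CRX. The metatherian libraries lay close together, and control replicate 3 lay within their range. The fit gave a log2 fold change of -0.67 with an SE of 0.23 (unadjusted p = 0.0231, edgeR adjusted p = 0.18), with means of 19.3 ± 6.28 and 11.9 ± 0.515 CPM (SD, n = 3 each).

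*Eomes* (chr9:118478180-118486132, plus strand, 6 exons) lay at 1.39, 1.06 and 1.96 CPM in control, 0.754, 0.535 and 1.54 with eutherian CRX and 0.797, 0.634 and 1.60 with metatherian CRX. Replicate 3 was the highest of each condition, and each CRX library lay under the control library of its number. The log2 fold change against control was -0.61 with an SE of 0.25 for metatherian CRX (unadjusted p = 0.0443, edgeR adjusted p = 0.233) and -0.73 with an SE of 0.26 for eutherian CRX (unadjusted p = 0.0227, edgeR adjusted p = 0.4). Both comparisons use the same control libraries. The supplementary lists of the study hold *Gata3*, *Arid5a* and *Krt18* as drawn from these same libraries, so that their values here are not independent evidence.

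The other 10 tested genes had log2 fold changes from -0.46 (*Gata4*, SE 0.77) to 1.07 (*Sox2*, SE 0.55) with metatherian CRX against control. *Sox2* was the nearest of them to the threshold, with each metatherian library above the control library of its number (edgeR adjusted p = 0.32). With eutherian CRX the same 10 genes ran from -0.67 (*Nanog*, SE 0.47) to 0.66 (*Hand1*, SE 0.75).

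**Figure D3:**
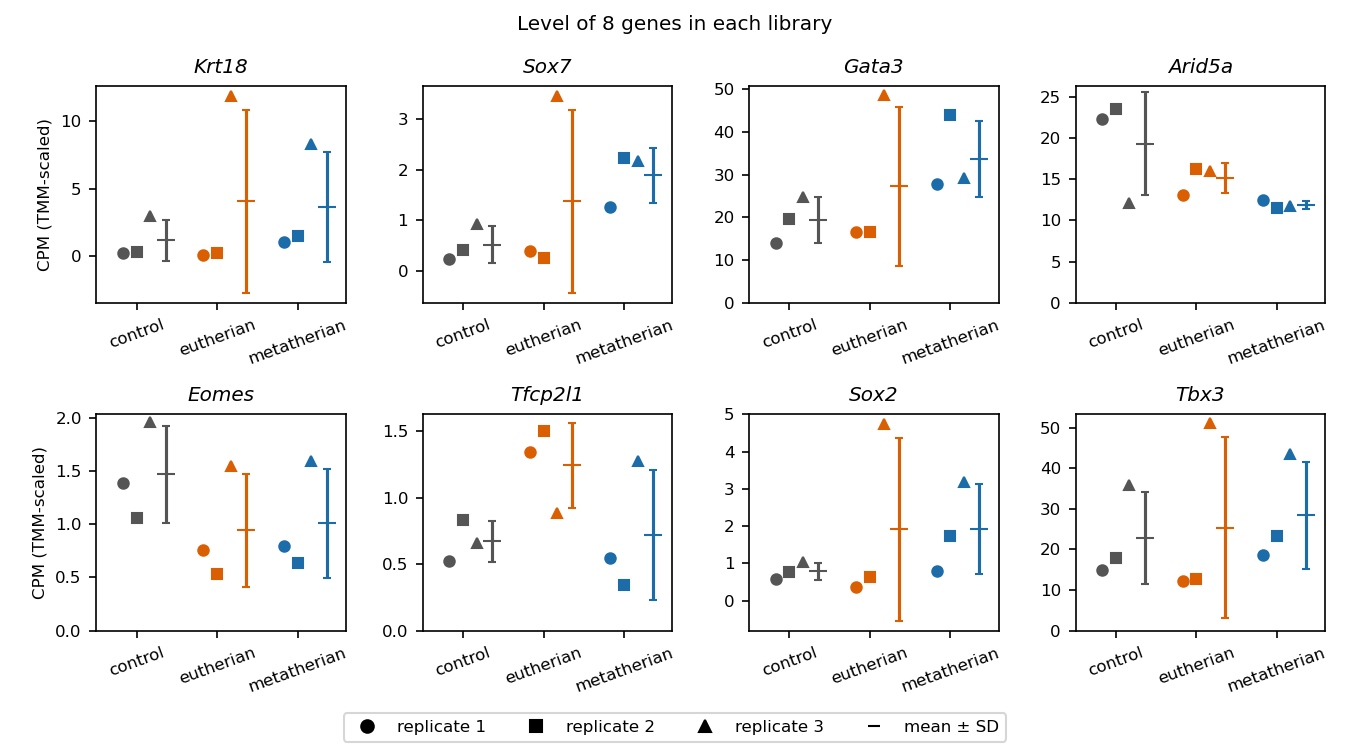
Level in CPM of 8 genes in each library, by condition, with symbols for the replicate number and a bar for the mean ± SD of 3 libraries (each panel has its own linear axis, and a bar may run below 0). In *Krt18*, *Sox2* and *Tbx3* the triangle of replicate 3 is the highest of each condition, whereas in *Sox7* and *Gata3* the metatherian libraries all lie above the control libraries, at 1.27 to 2.23 CPM against 0.231 to 0.925 CPM for *Sox7*.

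Eutherian CRX against control likewise gave no member at an adjusted p under 0.05, whereas 91 of all genes were called (0.623%), and DESeq2 called no member among 505 genes (3.46%). At an unadjusted p under 0.05 *Eomes* was the single member, against 9.65% of all genes and 7.16% for the lower ones alone. *Tfcp2l1* was the single member whose libraries did not overlap, against 14.4% of all genes and 6.08% for the higher ones alone. The median log2 fold change was 0.17 over the 16 genes tested (9 above 0, 7 below) and 0.01 over all genes tested.

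*Tfcp2l1* (chr1:118627923-118685168, plus strand, 15 exons) lay at 0.521, 0.833 and 0.658 CPM in control, 1.34, 1.5 and 0.884 with eutherian CRX and 0.544, 0.343 and 1.27 with metatherian CRX. The eutherian libraries were all above the control libraries, though replicate 3 by little, and the metatherian libraries lay on both sides. For *Tfcp2l1* the log2 fold change was 0.91 with an SE of 0.51 for eutherian CRX (unadjusted p = 0.112, edgeR adjusted p = 0.651) and 0.03 with an SE of 0.53 for metatherian CRX (edgeR adjusted p = 0.979). The latter changed sign with the libraries used, from -0.72 without metatherian CRX replicate 3 to 0.56 without metatherian CRX replicate 2.

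The genes with higher values at an unadjusted p under 0.05 with metatherian CRX, none called after adjustment, gave no uniform picture with eutherian CRX. *Krt18* lay at 0.10, 0.223 and 11.8 CPM, *Sox7* at 0.402, 0.267 and 3.46 CPM and *Gata3* at 16.5, 16.5 and 48.7 CPM. In each of these genes eutherian CRX replicate 3 was the highest of all 9 libraries, and replicates 1 and 2 lay within or under the range of the control libraries. The log2 fold changes of eutherian CRX against control were 0.61 ± 0.76, 0.97 ± 0.65 and 0.40 ± 0.35 (SE), with edgeR adjusted p = 0.876, 0.724 and 0.799. Without eutherian CRX replicate 3 they were -1.12, -0.15 and -0.14, so that 1 library set their direction.

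*Arid5a* lay at 13.1, 16.3 and 16.03 CPM with eutherian CRX, between the higher control libraries and the metatherian ones. The log2 fold change against control was -0.32 with an SE of 0.23 (edgeR adjusted p = 0.749).

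The direct comparison of metatherian with eutherian CRX asks whether the 2 proteins differ on these genes. It gave no member at an adjusted p under 0.05, and 0 of the 14599 genes (0%) were called at all. No member had an unadjusted p under 0.05, although 1704 genes (11.7%) did, and DESeq2 called 383 genes (2.62%) and no member. *Arid5a* was the single member whose libraries did not overlap, lower with metatherian CRX (11.4 to 12.4 CPM) than with eutherian CRX (13.1 to 16.3 CPM), against 11.5% of all genes and 5.32% for the lower ones alone. Its log2 fold change was -0.36 with an SE of 0.23 (edgeR adjusted p = 0.6). The largest estimates among the members were those of *Krt18* at 1.39 with an SE of 0.73 and *Sox7* at 1.20 with an SE of 0.64 (edgeR adjusted p = 0.509 and 0.517), errors wide enough that these data neither show a difference nor set a narrow limit on one. The estimate for *Krt18* holds the replicate number as a block, whereas its mean CPM was lower with metatherian CRX (3.62 ± 4.06) than with eutherian CRX (4.05 ± 6.73, SD, n = 3 each) and its log2 fold change without the block was -0.16. Without eutherian CRX replicate 3, *Krt18* at 2.93 and *Tbx3* at 0.73 were called (edgeR adjusted p = 0.014 and 0.0405), among 3.57% of genes.

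**Figure D4:**
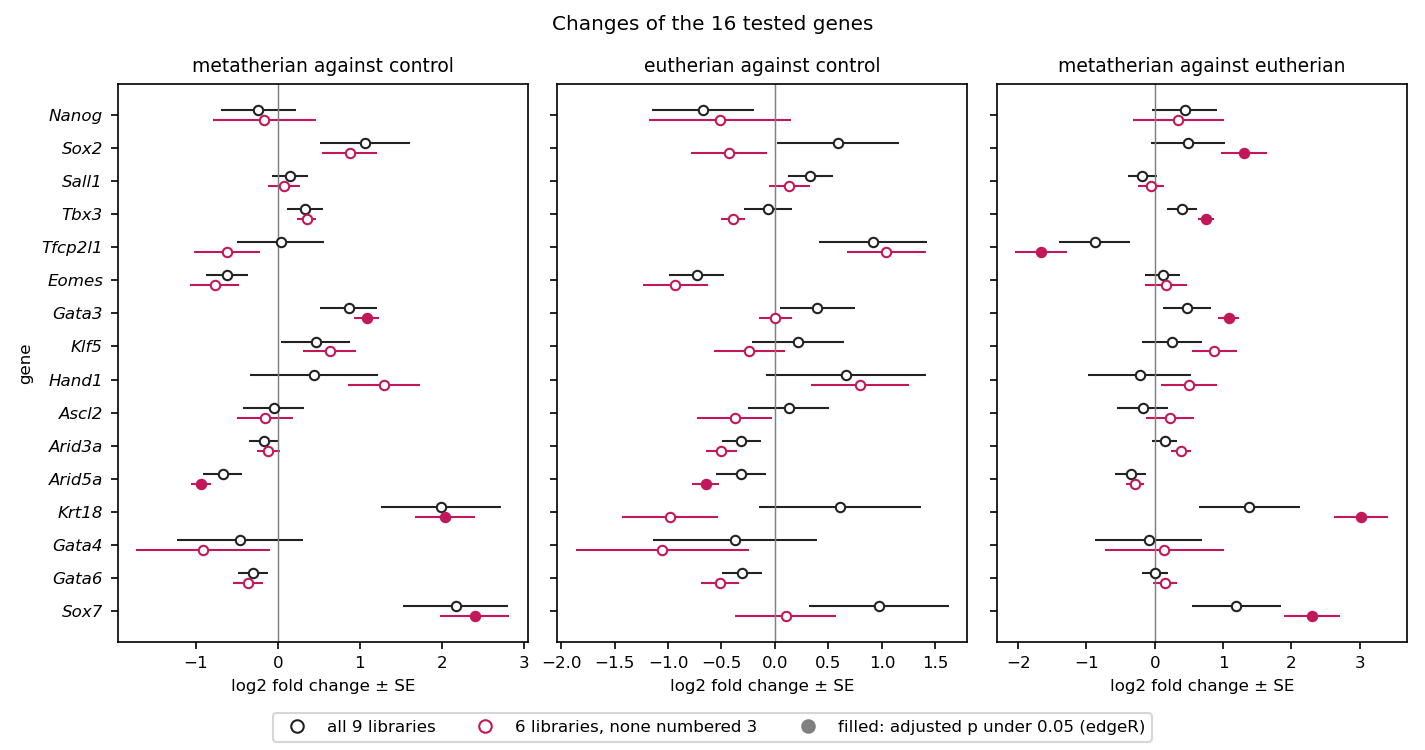
Log2 fold change with its SE of the 16 tested genes (rows) in the 3 comparisons (panels, each with its own axis), from all 9 libraries (black) and from the 6 libraries that are not numbered 3 (magenta), with filled points at an edgeR adjusted p under 0.05. No black point is filled, while 4, 1 and 6 magenta points are, and the magenta error bars of *Krt18*, *Sox7* and *Gata3* are the shorter ones.

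In 7 of the 16 tested genes (43.8%) replicate 3 was the highest library in all 3 conditions, against 14.4% of all genes tested, and in *Sall1* it was the lowest in all 3 (6.25% against 13%). The 7 genes were *Sox2*, *Tbx3*, *Eomes*, *Arid3a*, *Krt18*, *Gata4* and *Gata6*. *Krt18* was the extreme, with replicate 3 at 9.39 times the mean of replicates 1 and 2 in control, 73.1 times with eutherian CRX and 6.46 times with metatherian CRX. *Sox2* stood at 1.53, 9.49 and 2.51 times in the same order, and *Tbx3* at 2.19, 4.10 and 2.07 times. *Hand1*, a factor of trophoblast giant cells and heart, ran the other way in the metatherian condition, at 0.0614 CPM in replicate 3 against 0.595 and 0.713 CPM. What sets the libraries numbered 3 apart is not given in the labels, which name 1 sequencing chip for all libraries.

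**Figure D5:**
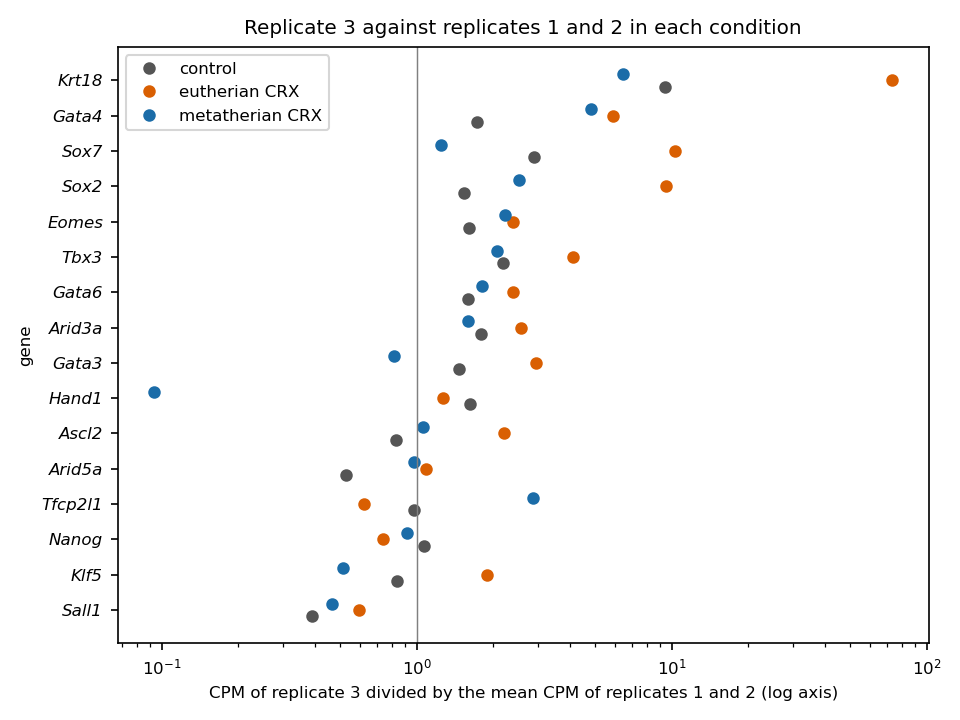
CPM of replicate 3 divided by the mean CPM of replicates 1 and 2 in the same condition (log axis), for the 16 tested genes sorted from high to low, with 1 point for each condition. *Krt18* lies farthest right, at 6.46 to 73.1, *Sall1* lies left of 1 in all 3 conditions, and *Hand1* with metatherian CRX is the lowest point.

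When all 3 libraries numbered 3 were left out, members passed the adjusted threshold in every comparison, within a far larger number of called genes. Metatherian CRX against control then called 3387 of 14628 genes (23.2%, of which 11.3% higher and 11.8% lower) and 4 members, namely *Sox7* at a log2 fold change of 2.4, *Krt18* at 2.04, *Gata3* at 1.09 and *Arid5a* at -0.94 (edgeR adjusted p = 0.00496, 0.00584, 0.00205 and 0.00159). Eutherian CRX against control called 578 genes (3.95%, of which 3.34% lower) and 1 member, *Arid5a* at -0.65 (edgeR adjusted p = 0.0292). In this subset *Gata3* stood at 0.00 with an SE of 0.16 and *Sox7* at 0.10 with an SE of 0.47 for eutherian CRX against control, and *Krt18* at -0.98 with an SE of 0.45 (edgeR adjusted p = 0.32).

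In the same 6 libraries metatherian against eutherian CRX called 3247 genes (22.2%, of which 12.6% higher and 9.63% lower) and 6 members. Higher with metatherian CRX were *Krt18* at 3.02 (edgeR adjusted p = 0.00161), *Sox7* at 2.30 (0.00634), *Sox2* at 1.31 (0.0276), *Gata3* at 1.08 (0.00232) and *Tbx3* at 0.75 (0.00295). *Tfcp2l1* was lower, at -1.66 (0.0166). The *Krt18* estimate comes from 8 and 15 counts in eutherian CRX replicates 1 and 2 and from 82 and 116 in the metatherian ones. In replicate 3, left out here, *Krt18* ran the other way, with 896 counts with eutherian CRX and 541 with metatherian CRX. These calls rest on 2 libraries a condition, and the libraries numbered 3 differ from them in all 3 conditions.

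Markers of other cell types were followed in the same libraries, and their part in the values of these genes was not tested. The 11 epithelial markers summed to 8.14 to 14.1 CPM in control, 9.02 to 19.7 with eutherian CRX and 14.8 to 25.1 with metatherian CRX, most of it *Krt19*, and 6 to 9 of the 11 reached 3 counts in a library. Of the 6 that were tested, 2 were higher at an unadjusted p under 0.05 with metatherian CRX against control (9.61% of all genes) and none lower, and the median log2 fold change of the 6 was 0.04. The higher ones were *Krt19*, without overlap (log2 fold change 0.86, edgeR adjusted p = 0.225), and *Epcam* (1.45, edgeR adjusted p = 0.168), whereas *Cldn7* stood at -0.92, *Krt7* at -0.38 and *Cdh1* at -0.080. With eutherian CRX *Krt7* was lower than in control without overlap (-1.68, edgeR adjusted p = 0.227). In level, *Epcam* lay at 0.0579 to 0.491 CPM over the 9 libraries, *Cdh1* at 0.158 to 0.481 CPM and *Grhl2* at no more than 2 counts. The 10 endothelial markers summed to 28.0 to 35.3 CPM in control, 28.4 to 34.2 with eutherian CRX and 24.5 to 28.4 with metatherian CRX. In eutherian CRX replicate 3, where *Sox7* was highest, their sum of 28.4 CPM was the lowest of its condition. Their median there was the highest of its condition, at 0.666 CPM against 0.251 and 0.297 CPM. Replicate 3 also had the highest median in control (0.581 CPM) and with metatherian CRX (0.897 CPM). *Cldn5* was at 0 in all libraries, and *Cdh5* ran from 0.0251 to 0.712 CPM with its highest value in eutherian CRX replicate 3. Of the 8 tested, *Emcn* was lower at an unadjusted p under 0.05 in each CRX condition against control. This was 1 of 8, beside 10.8% and 7.16% of all genes with metatherian and eutherian CRX. None was higher, and the list medians of the log2 fold change were -0.21 with metatherian and -0.073 with eutherian CRX.

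Of the 10 fibroblast markers, 8 were lower at an unadjusted p under 0.05 with metatherian CRX against control and 3 with eutherian CRX, beside 10.8% and 7.16% of all genes. Their sum was lowest in the libraries numbered 3 of each CRX condition, at 7824 CPM (eutherian) and 8706 CPM (metatherian), and was 15586 to 33917 CPM in the other 7 libraries. Cardiac and smooth muscle markers summed to 2369 to 4067 CPM in control, 289.9 to 1701 with eutherian CRX and 554 to 1108 with metatherian CRX, and all 5 that were tested were lower without overlap in both CRX conditions, beside 12.5% of all genes with metatherian and 8.27% with eutherian CRX. Macrophage markers summed to 12.1 to 42.2, 5.22 to 23.5 and 5.18 to 11.1 CPM in the same order. At an unadjusted p under 0.05, 4 of the 6 tested were lower with metatherian CRX, beside 10.8% of all genes. With eutherian CRX it was 1 of 6, beside 7.16%. Neural markers summed to 70.1 to 115 CPM in control, 85.2 to 113 with eutherian CRX and 209, 199 and 96.0 with metatherian CRX, and 3 of the 6 tested reached an unadjusted p under 0.05 with metatherian CRX, 2 with a higher level and 1 with a lower. No marker of these 6 lists passed an adjusted p under 0.05 in any of the 3 comparisons.

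Other genes of the same stages, listed by role with earlier results of these data known, were counted in the same fits. Of 15 further 2-cell genes 10 had a row, of which 7 were at 0 in all libraries and 2 were tested. Of 20 other pluripotency genes 12 were tested, of 22 other trophoblast genes 16 and of 16 other primitive endoderm genes 11. None of these 4 lists held a call at an adjusted p under 0.05 in any of the 3 comparisons. In metatherian CRX against control, an unadjusted p under 0.05 was reached by 2 higher and 4 lower genes of the trophoblast list, 1 higher and 2 lower of the pluripotency list, 1 higher and 2 lower of the primitive endoderm list and 1 higher of the 2-cell list, beside 9.61% higher and 10.8% lower of all genes. The higher trophoblast genes, named after their values were seen, were *Tead4*, a TEA-domain factor upstream of *Cdx2*, and *Krt19*. *Tead4* lay at 5.19, 6.72 and 7.96 CPM in control and at 9.73, 13.3 and 13.2 with metatherian CRX, without overlap (log2 fold change 0.89, edgeR adjusted p = 0.167). The lower trophoblast genes were *Bmp4*, *Ets2*, *Fgfr2* and *Satb1*, and among the further Otx and ETCHbox genes the row of mouse *Crx* was the one gene tested and was called in eutherian CRX against control (edgeR adjusted p = 0.025). Whether the counts in this row came from mouse *Crx* or from the ectopic human *CRX* was not tested.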

How the data were processed

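Poly-A RNA of MEFs was sequenced in 9 libraries, grouped by their labels into 3 of control, 3 of eutherian CRX and 3 of metatherian CRX. Paired reads had been aligned by the authors to mm10 (GRCm38) with STAR and counted with featureCounts, and the deposited counts are raw, per gene and per library, without normalization or pooling. Which annotation release was used, whether strand was, and how reads with several alignments were treated is not given in the sources used here. FPKM was computed anew from counts and the exon lengths listed in the table.

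Counts were analysed with edgeR 4.0.16, limma 3.58.1 and DESeq2 1.42.0 in R 4.3.3. filterByExpr with the 3 conditions as groups kept 14599 of 22068 rows. The main result was edgeR's quasi-likelihood test with TMM factors and the replicate number as a block, fitted on all 9 libraries, and genes were called at a Benjamini-Hochberg adjusted p under 0.05 over all genes tested. A block was used because of the statement of the study that samples were prepared in pairs. The SE was taken as the absolute log2 fold change over the square root of the F statistic. In simulated counts with 198 genes changed by a log2 fold change of 2 between metatherian CRX and control, edgeR recovered 172 with 8 false calls among 14493 genes, and DESeq2 186 with 56. The simulated libraries held no shift between replicate numbers, unlike the real ones. Most members also had smaller estimates than the change put in, so the recovery does not measure the power for them. Replicates differed by more than sampling noise and were kept apart.

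The depth was 54145701 to 94699657 counts per library. The members and gene lists were chosen with earlier results of these data known. Statistics are given in full for tested members with an unadjusted p under 0.05 or with libraries that do not overlap in at least 1 comparison, and for *Gata3*, *Arid5a* and *Krt18*. Alternatives were no block, other size factors, DESeq2, other filters, only the 6 libraries compared, each library left out, all libraries numbered 3 left out, and unadjusted p. Promoters are RefSeq's on GRCm38.p6, and transcripts for shared stretches and exon overlaps are those of GENCODE for GRCm38.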

Additional observations from a re-analysis of the deposited data

How the results depend on the processing

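For metatherian CRX against control, eutherian CRX against control and metatherian against eutherian CRX, in this order, the 2, 91 and 0 genes called became 0, 0 and 0 without the replicate block (2024, 974 and 977 at an unadjusted p), 1395, 505 and 383 with DESeq2, 548, 0 and 0 with only the 6 libraries compared (3124, 1388 and 1301 at an unadjusted p), 3387, 578 and 3247 without the libraries numbered 3, and 2984, 1409 and 1704 at an unadjusted p. Leaving out each library gave 0 to 1305, 0 to 186 and 0 to 527. The members called, 0 in each comparison, became 2 (*Krt18* and *Sox7*), 0 and 0 with DESeq2, 1 (*Krt18*), 0 and 0 with only the 6 libraries compared, 4, 1 and 6 without the libraries numbered 3, and 5, 1 and 0 at an unadjusted p. Leaving out each library gave 0 to 2, 0 to 0 and 0 to 2, with calls in *Krt18* and *Sox7* without eutherian CRX replicate 3 (for metatherian CRX against control), in *Krt18* and *Tbx3* without the same library (for metatherian against eutherian CRX) and in *Gata3* and *Sox7* without metatherian CRX replicate 3 (for metatherian CRX against control). The cause was not tested.

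Against control, *Sox7*, *Krt18* and *Gata3* stayed higher and *Arid5a* and *Eomes* lower with metatherian CRX under every alternative run. *Tfcp2l1* with metatherian CRX turned to -0.072 with only the 6 libraries compared and to -0.62 without the libraries numbered 3, and ran from -0.72 to 0.56 with each library left out. With eutherian CRX *Krt18* turned to -0.98 without the libraries numbered 3 and ran from -1.12 to 1.14 with each library left out, *Gata3* from -0.14 to 0.74 and *Sox7* from -0.15 to 1.58. For metatherian against eutherian CRX *Krt18* was -0.16 without the replicate block. Counted at a CPM of at least 1 in place of 3 counts, the lowest library held 8 members in place of 15.

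The replicate numbers were not shown to mark pairs. Deviations from the condition mean correlated above 0.1 in 8 of 9 pairs of libraries with the same number (0.0395 to 0.626) and in 5 of 18 with different numbers (-0.627 to 0.565), and 6 of 9 libraries correlated best with their own number. Without the block 1, 0 and 0 members were under an unadjusted p of 0.05. The depth leaves genes under 3 counts without a test.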

Other observations

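The row of mouse *Otx1*, a relative of *CRX*, had 0, 6 and 0 counts in control, 11, 13 and 4 with eutherian CRX and 2, 0 and 0 with metatherian CRX. It fell under the filter on low counts and was not tested, and neither was whether reads of the ectopic genes entered it.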
